A study of Mus musculus with 12 samples.

Results

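The 9 genes described here encode transcription factors of the macrophage lineage, Spi1, Spic, Id1, Id3, Maf, Zeb2, Irf8, Cebpb and Rxra. They were chosen by name, 9 of the 40840 genes listed in total RNA sequencing of hepatic macrophage preparations, that is, the immune cell fraction of digested mouse liver. The 12 libraries came from male mice, 3 in each of 4 groups. WT mice (C57BL/6) and Casp11-/- mice, whose germline lesion lies in Casp4 (the mouse gene of caspase-11, strain label B6.129S4(D2)-Casp4tm1Yuan/J), received normal chow diet (NCD) or high-fat diet (HFD), the latter as a model of NAFLD. Feeding lasted 12 weeks and began at 8 to 10 weeks of age. The targeted mutation is carried by every cell of the Casp11-/- mice, and no cell type was sorted, so each library is a bulk mixture in which fewer cells of a type and less RNA per cell cannot be told apart.

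PU.1, the product of Spi1, is the ETS factor that opens the regulatory DNA of myeloid cells and acts together with C/EBP and IRF partners. Its relative SpiC is needed for the iron-recycling macrophages of spleen and is expressed in Kupffer cells (KCs), the resident macrophages of the liver. ID1 and ID3 lack a DNA-binding surface and hold E proteins away from DNA, c-MAF restrains macrophage self-renewal, ZEB2 keeps tissue macrophages in their identity, IRF8 and C/EBPβ direct monocyte development, and RXRα pairs with LXRα and other nuclear receptors. None of these genes is restricted to macrophages, since B cells use Spi1 and Irf8, neutrophils use Cebpb, and endothelial cells use Maf and the ID genes.

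Promoter sequences are shown first for Spic, Zeb2 and Id3. These 3 and Maf were the factors with an unadjusted p under 0.05 for a higher level on HFD, averaged over genotypes, once the protein-coding genes were put on a common scale and 1 library that stood apart was left out, as described further on. In that limma fit 34.6% of 12365 genes had an unadjusted p under 0.05 in either direction. The sequences are those of RefSeq on GRCm38.p6, 250 bases before to 50 after the annotated start, and 6 of the 9 genes had at least 1. Zeb2 had 4 such promoters listed and Irf8 and Rxra 2 each, of which 1 per gene was read. Capitals mark matches on either strand to GAGGAA (the core bound by PU.1 and SpiC, written TTCCTC where it lies on the other strand), CANNTG (the E box), TTGCAA (a C/EBP form) and TGCTGA (part of a MAF site).
Spic, chr10:88682974-88683273, minus strand: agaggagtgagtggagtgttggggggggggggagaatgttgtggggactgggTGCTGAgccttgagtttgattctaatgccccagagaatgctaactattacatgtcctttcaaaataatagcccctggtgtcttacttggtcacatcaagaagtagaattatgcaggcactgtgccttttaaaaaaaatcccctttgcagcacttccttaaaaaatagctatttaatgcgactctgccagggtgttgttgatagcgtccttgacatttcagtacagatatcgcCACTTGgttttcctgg
Zeb2, chr2:45117393-45117692, minus strand: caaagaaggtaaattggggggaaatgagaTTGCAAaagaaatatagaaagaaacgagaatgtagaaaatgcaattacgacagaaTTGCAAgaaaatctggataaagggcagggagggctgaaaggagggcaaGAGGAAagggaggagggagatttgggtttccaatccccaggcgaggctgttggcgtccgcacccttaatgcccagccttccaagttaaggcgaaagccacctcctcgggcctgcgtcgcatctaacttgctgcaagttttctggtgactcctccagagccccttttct
Id3, chr4:136143572-136143871, plus strand: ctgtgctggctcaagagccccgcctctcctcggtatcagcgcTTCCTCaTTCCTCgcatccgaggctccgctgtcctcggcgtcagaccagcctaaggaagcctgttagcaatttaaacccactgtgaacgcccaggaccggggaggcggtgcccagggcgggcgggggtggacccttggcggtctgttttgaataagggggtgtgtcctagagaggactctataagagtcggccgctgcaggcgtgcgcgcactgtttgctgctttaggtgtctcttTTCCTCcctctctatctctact

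The Id3 promoter held 3 matches to GAGGAA, the Zeb2 promoter 1 match to it and 2 to TTGCAA, and the Spic promoter 1 match to TGCTGA and 1 E box. Of 32851 mouse promoters of the same length, 28.3% held GAGGAA, 6.23% TTGCAA, 19.5% TGCTGA and 72.3% CANNTG. The Rxra promoter held 1 TTGCAA and 1 E box. None of these letters, nor GAAACT (part of an interferon response element, in 15.8% of promoters) or AGGTCA (the core of nuclear receptor sites, in 16.3%), was found in the 1 window read for Irf8 or the 1 for Cebpb. A match is a description of letters and not of binding.

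Before the levels of the factors are given, 3 features of the libraries must be stated. WT-NCD replicate 3 stood apart, with 39677 genes above the lowest deposited value against 12940 to 18775 in the other libraries, and a correlation with them of at most -0.068. Results that rest on it are therefore given with and without it. Casp4 was at 5.60 to 15.6 TPM (a share of the library's transcripts, scaled to transcript length) in WT libraries and at 2.56 to 15.2 in Casp11-/- libraries, so 2 of 6 libraries labelled Casp11-/- lay within the WT range (the libraries labelled Casp11-/- NCD replicate 3 and Casp11-/- HFD replicate 2). Casp11-/- is therefore used as the label of a library throughout, and a value for the whole gene does not show which exons were read. The column header of the second of these libraries also carries a shorter genotype code than the other Casp11-/- libraries, so its genotype is in doubt. The U3 small nucleolar RNA genes took 25.8% to 58.5% of the TPM of HFD libraries and 1.24% to 4.84% of the NCD libraries other than WT-NCD replicate 3. As the total is fixed, less of it remained for other genes on HFD, and levels are also given on a protein-coding scale, on which the protein-coding genes of each library sum to 1000000.

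The cell label was checked against marker genes. The 10 pan-macrophage genes (among them Csf1r, Cd68 and Adgre1) were all above the lowest deposited value in the 11 libraries other than WT-NCD replicate 3, except Fcgr1 in 1 of them, and summed to 206 to 1358 TPM there. The 10 hepatocyte genes, led by Alb, summed to 8357 to 29227 TPM in the same libraries. B cell genes summed to 461 to 1915 TPM on NCD and 145 to 330 on HFD, the 8 KC genes to 23.1 to 44.3 on NCD and 168 to 533 on HFD, and sinusoidal endothelial genes to 102 to 528 on NCD and 262 to 1421 on HFD. Of the KC genes, Marco was above the lowest value in 5 of the 11 libraries and Cd163 in 9. The part of these other cells in the results for the 9 factors was not tested.

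All 9 factors were detected, Spic in 11 of 12 libraries and the others in 12. By the median TPM of the 11 libraries without WT-NCD replicate 3, the order was Cebpb (97.3), Spi1 (65.4), Maf (58.2), Irf8 (44.9), Zeb2 (22.8), Rxra (19.3), Id3 (17.2), Id1 (5.06) and Spic (2.02). Only 2 steps of this order held in every one of the 11 libraries, Irf8 over Zeb2 and Id3 over Id1. Cebpb exceeded Spi1, Spi1 exceeded Maf and Maf exceeded Irf8 in 6 of 11 libraries each, so the leading 4 did not differ beyond their spread.

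**Figure D1:**
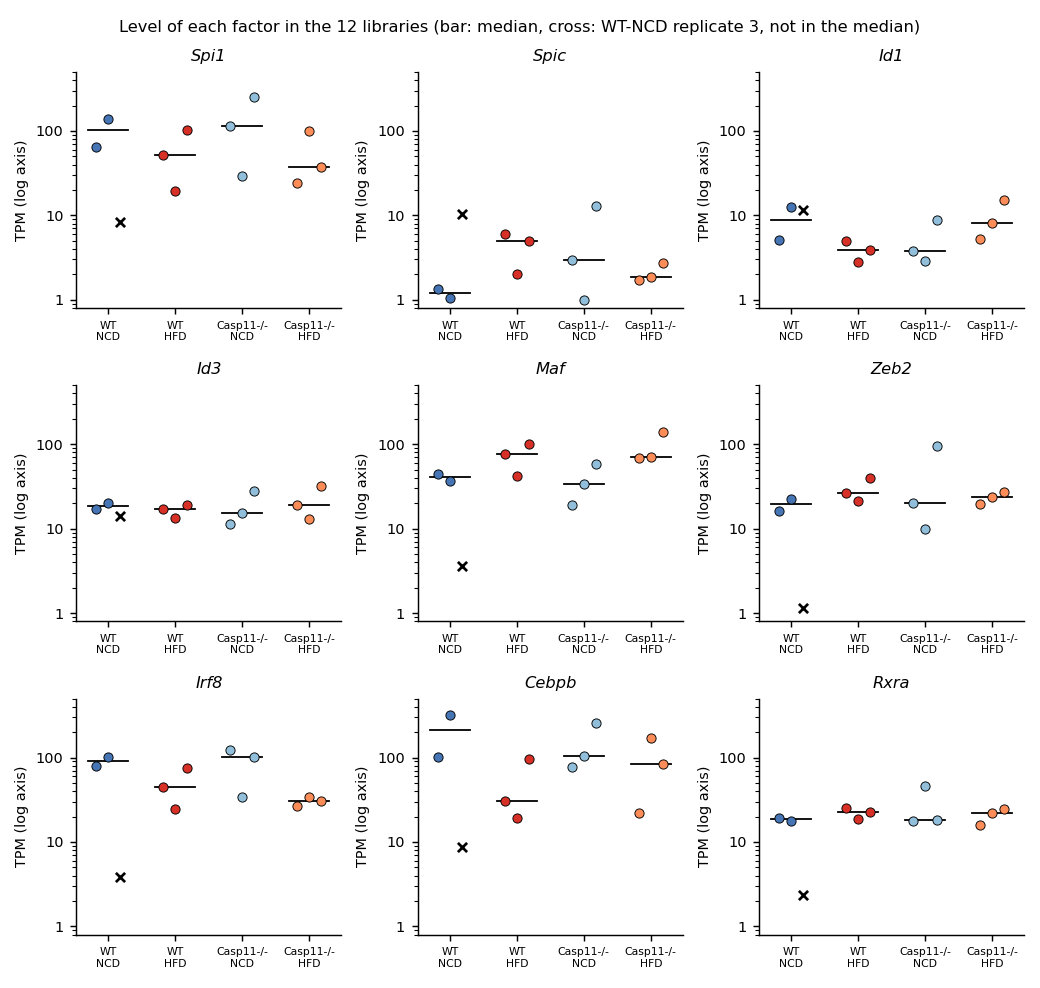
TPM of each factor (log axis) in the 12 libraries, 1 point per mouse, with a bar at the median of the group and a cross for WT-NCD replicate 3, which is left out of the median. Maf was higher on HFD than on NCD in all 3 Casp11-/- libraries, from 68.6 TPM upwards against at most 58.2.

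Spi1, on chromosome 2 (91082390 to 91115756, plus strand, GENCODE vM21 on GRCm38), was at 65.4, 138 and 8.30 TPM in WT-NCD, 51.3, 19.3 and 104 in WT-HFD, 113, 29.4 and 249 in Casp11-/- NCD and 24.4, 101 and 37.2 in Casp11-/- HFD mice. The groups overlapped in every comparison. The difference between the diets, averaged over the genotypes, was -0.46 ± 0.78 on the log2 scale (SE, HFD minus NCD, log2(TPM + 1), limma over all genes, adjusted p = 0.672). Once WT-NCD replicate 3 was omitted it was -1.02 ± 0.51 (adjusted p = 0.145).

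Spic, on chromosome 10 (88674772 to 88685015, minus strand), was the least abundant factor, close to the lowest deposited value in several libraries, so that its fold changes are understated on the log2(TPM + 1) scale. Its TPM was 1.36, 1.04 and 10.5 in WT-NCD, 6.03, 2.02 and 5.02 in WT-HFD, 2.92, 1.01 (the lowest deposited value) and 13.0 in Casp11-/- NCD, and 1.71, 1.89 and 2.70 in Casp11-/- HFD mice. Leaving aside WT-NCD replicate 3, the level in all 3 WT-HFD mice was above that in both WT-NCD mice, while in Casp11-/- mice the HFD values lay inside the NCD range. Of all genes tested, 54.6% separated the WT diets in either direction without that library. On the protein-coding scale without that library the log2 difference in WT mice was 2.17 ± 0.57 (unadjusted p = 0.00223, adjusted p = 0.0907) and in Casp11-/- mice -0.15 ± 0.51 (adjusted p = 0.871). The difference between these effects was -2.32 ± 0.76 (adjusted p = 0.874), which did not pass the test. The protein-coding scale also multiplies the lowest deposited value, by more where the protein-coding share of TPM is smaller. That share was 15.7% to 25.2% in WT-HFD mice and 33.9% and 37.8% in WT-NCD replicates 1 and 2. Spic differences on this scale therefore include the scaling of values near the lowest one. Leaving out Casp11-/- NCD replicate 3, whose Casp4 value lay within the WT range, turned the Casp11-/- difference on the deposited scale from -0.64 to 0.13.

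The ID genes, both targets of BMP signaling, are given next. Id1 (chromosome 2, 152736251 to 152737410, plus strand) was at 5.06, 12.5 and 11.5 TPM in WT-NCD, 4.90, 2.78 and 3.89 in WT-HFD, 3.77, 2.86 and 8.83 in Casp11-/- NCD and 5.26, 8.02 and 15.3 in Casp11-/- HFD mice. All WT-HFD values were under all WT-NCD values, WT-NCD replicate 3 included, and all Casp11-/- HFD values were over all WT-HFD values. With all libraries 15.7% of all genes tested separated the WT diets in either direction. The genotypes on HFD separated in 1 of the 9 factors on the deposited scale, where 4.02% of all genes tested did. On the protein-coding scale the WT diets overlapped for Id1, at 14.6 and 32.4 on NCD (78.8 in WT-NCD replicate 3) and 15.1 to 19.6 on HFD, and the Casp11-/- diets did not, at 10.1 to 20.5 on NCD and 26.8 to 65.5 on HFD. On that scale 3 factors separated the genotypes on HFD (Id1 higher, Spic and Irf8 lower in Casp11-/- mice), against 9.53% of all genes tested. The diet effect of Id1 in Casp11-/- mice exceeded that in WT mice by 1.86 ± 0.75 on the log2 scale, at an unadjusted p of 0.0314 and an adjusted p of 0.780 in limma over all genes. Id3 (chromosome 4, 136143497 to 136145755, plus strand) stayed between 11.2 and 32.3 TPM over all 12 libraries, and its log2 difference between diets was 0.09 ± 0.32 (adjusted p = 0.839).

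Maf, on chromosome 8 (115682942 to 115707794, minus strand), had the largest diet difference of the 9 when all libraries were averaged over genotypes. It was at 44.0, 36.8 and 3.65 TPM in WT-NCD, 77.2, 41.6 and 101 in WT-HFD, 19.2, 33.7 and 58.2 in Casp11-/- NCD and 68.6, 69.8 and 138 in Casp11-/- HFD mice. On this deposited scale the diets did not overlap in Casp11-/- mice, where Maf was the only factor of the 9 to separate, against 18.7% of all genes tested. In WT mice, the lowest HFD value lay under the highest NCD value. Averaged over genotypes, the log2 difference was 1.58 ± 0.58 (adjusted p = 0.223). It was 1.05 ± 0.38 when WT-NCD replicate 3 was omitted (adjusted p = 0.0524). On the protein-coding scale Maf was at 51.4 to 148 in 5 NCD libraries (25.1 in WT-NCD replicate 3) and at 260.3 to 592 in 6 HFD libraries. The means there were 111 ± 38.7 on NCD (SD, n = 5) and 366 ± 120 on HFD (SD, n = 6), with no overlap over both genotypes. Again Maf was the only one of the 9 to separate so, where 8.13% of all protein-coding genes tested did. Within Casp11-/- mice on that scale 3 factors separated by diet (Maf and Id1 higher, Irf8 lower on HFD), against 21.1% of genes.

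Zeb2 (chromosome 2, 44983632 to 45117395, minus strand) was at 16.1, 22.8 and 1.14 TPM in WT-NCD, 26.4, 21.3 and 39.9 in WT-HFD, 20.1, 9.92 and 96.0 in Casp11-/- NCD and 19.4, 23.6 and 26.8 in Casp11-/- HFD mice. One library, Casp11-/- NCD replicate 3, held the highest Zeb2, Spi1 and Spic of all. Its Casp4 value, 15.2 TPM, lay within the WT range. The Zeb2 difference between the diets was 0.69 ± 0.66 averaged over genotypes (adjusted p = 0.564). That average rests in part on WT-NCD replicate 3. The WT-NCD mean was 13.3 TPM with it and 19.4 without it, against 29.2 in WT-HFD mice. In Casp11-/- mice the Zeb2 difference turned from -0.23 to 0.66 without Casp11-/- NCD replicate 3.

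Irf8 (chromosome 8, 120736358 to 120756694, plus strand) was at 78.8, 102 and 3.87 TPM in WT-NCD, 44.9, 24.8 and 75.9 in WT-HFD, 123, 34.3 and 102 in Casp11-/- NCD and 26.7, 34.5 and 30.5 in Casp11-/- HFD mice. Without WT-NCD replicate 3, both WT-NCD values exceeded all 3 WT-HFD values, and 4 of the 9 factors separated in that comparison (Spic higher on HFD, Id1, Irf8 and Cebpb lower), against 54.6% of all genes tested. On the protein-coding scale Id1, Irf8 and Cebpb overlapped between the WT diets, and 5 factors separated, all higher on HFD (Spic, Id3, Maf, Zeb2 and Rxra), against 51.6% of genes. For Spic this includes the scaling of values near the lowest deposited one. Averaged over genotypes the Irf8 difference was -0.45 ± 0.72 with all libraries (adjusted p = 0.655). It reached -1.15 ± 0.39 in the 11 libraries (adjusted p = 0.0432).

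Cebpb (chromosome 2, 167688915 to 167690418, plus strand) was at 102, 323 and 8.77 TPM in WT-NCD, 30.9, 19.1 and 97.3 in WT-HFD, 77.6, 105 and 258 in Casp11-/- NCD and 22.2, 171 and 84.1 in Casp11-/- HFD mice. The diets overlapped in Casp11-/- mice and, once WT-NCD replicate 3 was omitted, not in WT mice, where 54.6% of all genes tested separated. The diet difference was -0.84 ± 0.86 with all libraries (adjusted p = 0.565). In the 11 libraries it was -1.54 ± 0.51 (adjusted p = 0.0396). The highest HFD value, 171 TPM, came from the library labelled Casp11-/- HFD replicate 2, which also held 3994 TPM of summed neutrophil genes against 103 to 408 in the other HFD libraries. The part of neutrophils in that value was not tested.

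Rxra (chromosome 2, 27676440 to 27762957, plus strand) lay between 15.7 and 25.2 TPM in 10 libraries, with 45.9 in Casp11-/- NCD replicate 2 and 2.33 in WT-NCD replicate 3. Its log2 difference between the diets was 0.42 ± 0.47 (adjusted p = 0.578), or -0.01 ± 0.35 if the latter library was omitted (adjusted p = 0.985).

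With all 12 libraries, 0 of the 9 factors passed an adjusted p of 0.05 in any of the 6 comparisons. In limma, Maf alone had an unadjusted p under 0.05 for diet averaged over genotypes and Id1 alone for the interaction, and there was none in the other 4 comparisons. Among 19498 genes tested, 0.554% passed for diet averaged over genotypes, 0.113% for diet in WT mice, 0% for diet in Casp11-/- mice, 0% for genotype on NCD, 0% for genotype on HFD and 0% for the interaction. An unadjusted p under 0.05 was held by 16.8% of genes for diet averaged over genotypes and by 6.96% for diet in WT mice. In the last 4 comparisons, 1653, 293, 30 and 154 genes had an unadjusted p under 0.05.

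Between the genotypes on NCD, the log2 difference of the factors (Casp11-/- minus WT) ran from -0.83 for Id1 to 1.56 for Zeb2 with all libraries. Spi1, Maf, Irf8 and Cebpb turned from positive to negative once WT-NCD replicate 3 was omitted, and Spic, at 1.13 ± 0.58, was then the farthest from 0 (adjusted p = 1 in limma). On HFD the differences ran from -0.71 for Spic to 1.03 ± 0.53 for Id1 (adjusted p = 1 in limma, unadjusted p = 0.0804).

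Leaving out WT-NCD replicate 3 brought 2 of the 9, Irf8 and Cebpb, past the threshold for diet averaged over genotypes, both lower on HFD. In that fit 18.3% of 17950 genes passed, 3097 of 3289 of them lower on HFD, so the share of the 9 was near the background. Within WT mice 2.18% and within Casp11-/- mice 1.1% of genes passed, and 0 of the 9 did. The median difference over all genes was -0.39 on the log2 scale here and -0.61 with all libraries, so a difference of the factors on the deposited scale has to be read from those values and not from 0.

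On the protein-coding scale without WT-NCD replicate 3 the median over all genes was -0.06, and the calls changed. Maf passed for diet averaged over genotypes, 1.73 ± 0.30 on the log2 scale (adjusted p = 0.00573), a 3.32-fold higher level on HFD, where 14.6% of 12365 genes passed. It passed within Casp11-/- mice, 1.95 ± 0.41 (adjusted p = 0.0293), where 3.53% of genes did, and not within WT mice, 1.51 ± 0.45 (adjusted p = 0.131), where 0.954% did. The Maf effects of the genotypes differed by 0.43 ± 0.61 (adjusted p = 0.924). Irf8 and Cebpb no longer passed, at -0.50 ± 0.25 (adjusted p = 0.168) and -0.90 ± 0.51 (adjusted p = 0.226). With all 12 libraries on this scale Maf passed as well, at 2.08 (adjusted p = 0.0257).

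**Figure D2:**
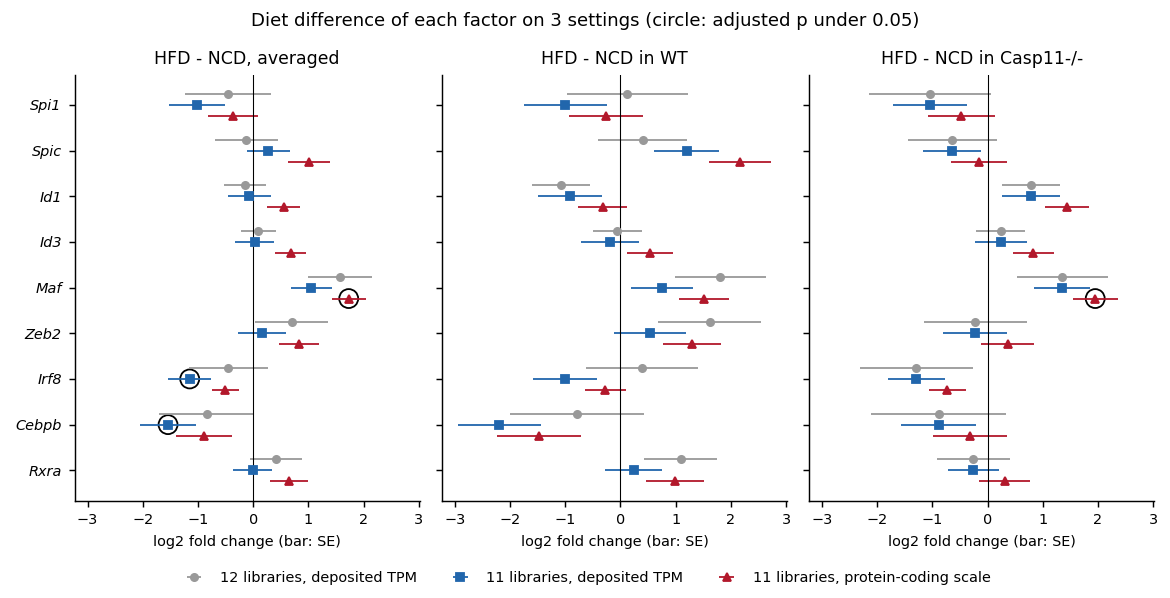
Log2 fold change of HFD over NCD for each factor, averaged over genotypes and within WT and Casp11-/- mice, with the SE as bars, for 12 libraries and deposited TPM (grey), 11 libraries without WT-NCD replicate 3 (blue) and 11 libraries on the protein-coding scale (red). Circles mark adjusted p under 0.05, reached by Irf8 and Cebpb on the deposited scale and by Maf on the protein-coding scale.

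Maf was next set against the summed cell type genes. On the protein-coding scale Maf separated by diet, so the relation was read within the 6 HFD libraries alone. There its level went with the summed level of 9 sinusoidal endothelial genes (Pearson r = 0.97, exact permutation p = 0.00139, Spearman rho = 1, exact permutation p = 0.00278). With the 8 KC genes r was 0.20 (exact permutation p = 0.686, rho = 0.54, exact permutation p = 0.297), and with the pan-macrophage genes -0.07 (exact permutation p = 0.885). The endothelial genes were not alone, since r with the B cell genes was 0.83 (exact permutation p = 0.0292, rho = 0.89, exact permutation p = 0.0333). These p-values are unadjusted, and 108 relations of 9 factors and 12 cell type lists were computed in all. Within the 5 NCD libraries, which were not tested, r was 0.95 with the endothelial genes, 0.82 with the KC genes and -0.33 with the pan-macrophage genes. With the B cell genes it was -0.45 there. Maf amounted to 8.34% to 18.9% of the endothelial sum on NCD and to 9.73% to 15.9% on HFD, so the diets overlapped. In a comparison added after the data were seen, that percentage differed between the diets by -0.00058 on the log2 scale (exact permutation p = 1). Of all genes tested 66.6% had a lower percentage of that sum on HFD at an exact p under 0.05, as did 5 of the 9 factors.

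**Figure D3:**
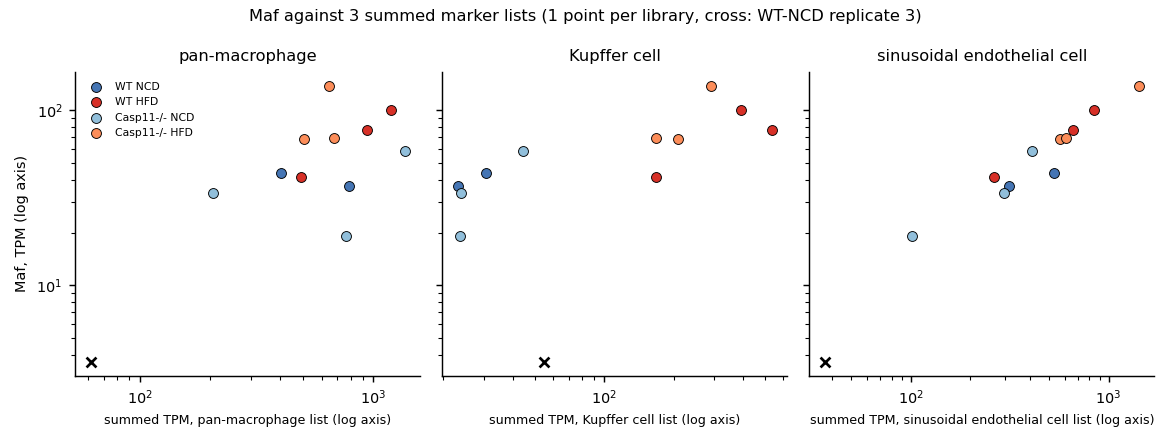
Maf TPM (log axis) against the summed TPM (log axis) of pan-macrophage, Kupffer cell and sinusoidal endothelial genes, 1 point per library, with a cross for WT-NCD replicate 3. The endothelial panel runs close to a line through all groups, from 36.7 to 1421 TPM, while the Kupffer cell panel shows 2 blocks, NCD at 23.1 to 54.8 and HFD at 168 to 533 TPM.

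Over the 11 libraries, further relations were seen for Zeb2, Spic, Irf8, Id3 and Rxra. Zeb2 went with the summed pan-macrophage genes (r = 0.85, permutation p = 0.00052, adjusted over 108 relations p = 0.0187, rho = 0.89, adjusted p = 0.0198), and r was 0.75 without the 2 libraries farthest from the median, 0.70 within HFD and 0.81 within NCD. Zeb2 also went with Spic (r = 0.87, permutation p = 0.00098, adjusted over 36 pairs of factors p = 0.0176, rho = 0.88, adjusted p = 0.0189), and the value was 0.83 without the 2 farthest libraries, 0.50 within HFD and 0.91 within NCD. Spic too went with the pan-macrophage genes by rank (rho = 0.87, permutation p = 0.0011, adjusted p = 0.0297), while r was 0.78 (adjusted p = 0.0538). Irf8 went with the T cell genes (r = 0.82, permutation p = 0.00263, adjusted p = 0.0406, rho = 0.75, adjusted p = 0.0990), with 0.67 without the 2 farthest libraries, 0.97 within HFD and 0.61 within NCD. It ran against the hepatocyte genes (r = -0.78, permutation p = 0.00306, adjusted p = 0.0413, rho = -0.80, adjusted p = 0.0518), with -0.87 without the 2 farthest, -0.93 within HFD and -0.71 within NCD. With the pan-macrophage genes the r of Irf8 was 0.07 over the 11 libraries, but 0.96 within HFD and 0.67 within NCD. With the dendritic cell genes these values were 0.38, 0.85 and 0.79, so within each diet Irf8 did not go with the T cell genes alone. Id3 went with the endothelial genes (r = 0.85, permutation p = 0.00165, adjusted p = 0.0406, rho = 0.81, adjusted p = 0.0518), a relation that fell to 0.46 without the 2 farthest libraries and so rests on them. The endothelial sum separated by diet on the protein-coding scale, at 272 to 1524 on NCD and 1642 to 6081 on HFD. Within HFD the r of Id3 was 0.63 (exact permutation p = 0.169) and rho 0.54 (exact permutation p = 0.297), and within NCD r was 0.84. Rxra went with the hepatocyte genes by rank (rho = 0.84, permutation p = 0.00216, adjusted p = 0.0467), while r was 0.74 (adjusted p = 0.0764). That r was 0.57 without the 2 farthest libraries, 0.34 within HFD and 0.71 within NCD. All these sums share the library and its fixed total. The permutations over the 11 libraries took no account of diet or genotype. Their p-values therefore do not separate a shift between the groups from a relation within them.

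Among 11429 protein-coding genes, those whose levels ran closest to each factor over the 11 libraries were listed as a description. Maf was followed by Ston1 (r = 0.996) and Tfpi (r = 0.992), the latter an inhibitor of coagulation made by endothelium. Themis2 was among the closest to Spi1 (r = 0.961). Irf8 was followed by Rbl2 (r = 0.962) and H2-Ab1 (r = 0.951), an MHC class II gene of antigen-presenting cells, and Cebpb by the immediate early gene Junb (r = 0.908) and the clock gene Per1 (r = 0.889). The closest genes of Zeb2 were Eif5 (r = 0.974) and Tmem51 (r = 0.971), and of Spic Slc12a2 (r = 0.973) and Gm6710 (r = 0.970). For Id1 they were Gla (r = 0.880) and Ahr (r = 0.875), for Id3 Pik3r3 (r = 0.935) and Lrp6 (r = 0.927), and for Rxra Atoh8 (r = 0.960) and Fgf1 (r = 0.954), both of which were near the lowest deposited value, as were Gm6710 and Pik3r3.

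Whether the factors kept pace with macrophage transcripts was asked by dividing each by the summed TPM of the 10 pan-macrophage genes of the same library, a ratio that the scale of the library does not change. Of these genes Csf1r, Cd68, Fcgr1 and Mpeg1 are also on the list of PU.1 targets used below. Mpeg1 alone made up a median of 34.1% of the sum, so the Spi1 ratio is in part Spi1 against its own targets. Spi1 was at 13.5% to 18.3% of that sum on NCD and at 3.93% to 14.9% on HFD. Irf8 was at 6.28% to 19.6% on NCD and 4.74% to 6.39% on HFD, and Cebpb at 10.2% to 51.0% on NCD and 3.29% to 25.2% on HFD. Without WT-NCD replicate 3, the Irf8 ratios of the diets did not overlap. How many of all genes separated so was not counted, and 81.5% of 17950 genes had a lower mean ratio on HFD there. The 1 HFD library with Spi1 inside the NCD range was again the one labelled Casp11-/- HFD replicate 2, whose genotype is in doubt.

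These 3 ratios were lower on HFD by the exact permutation of diet within genotype (400 regroupings, two-sided, smallest possible p = 0.005). Irf8 was 2.34-fold lower (exact p = 0.01), Spi1 2.40-fold (exact p = 0.015) and Cebpb 3.14-fold (exact p = 0.03). Leaving out 1 library at a time, the exact p ranged from 0.005 to 0.025 for Irf8 and from 0.005 to 0.03 for Spi1, while Cebpb lost the call without Casp11-/- NCD replicate 2 or Casp11-/- HFD replicate 1 (p = 0.075 each), WT-HFD replicate 1 or 2 (p = 0.055 each) and WT-NCD replicate 1 or 2 (p = 0.05 each). The other 6 factors did not pass (p from 0.125 for Maf to 0.89 for Zeb2), and these p-values are unadjusted over the 9. Many genes did the same, since 46.7% of 19498 genes had a lower ratio at an exact p under 0.05 (46.8% of 17950 without WT-NCD replicate 3). The median log2 difference of the ratio over all genes was -1.52, and -0.79 without WT-NCD replicate 3. The share of 3 in 9 was under that background. With KC genes as the reference 7 of 9 factors passed, lower on HFD, against 98.4% of all genes. With the pan-macrophage genes as the reference, the difference of the Maf ratio was 0.84 on the log2 scale and that of the Zeb2 ratio 0.04, neither past the test.

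**Figure D4:**
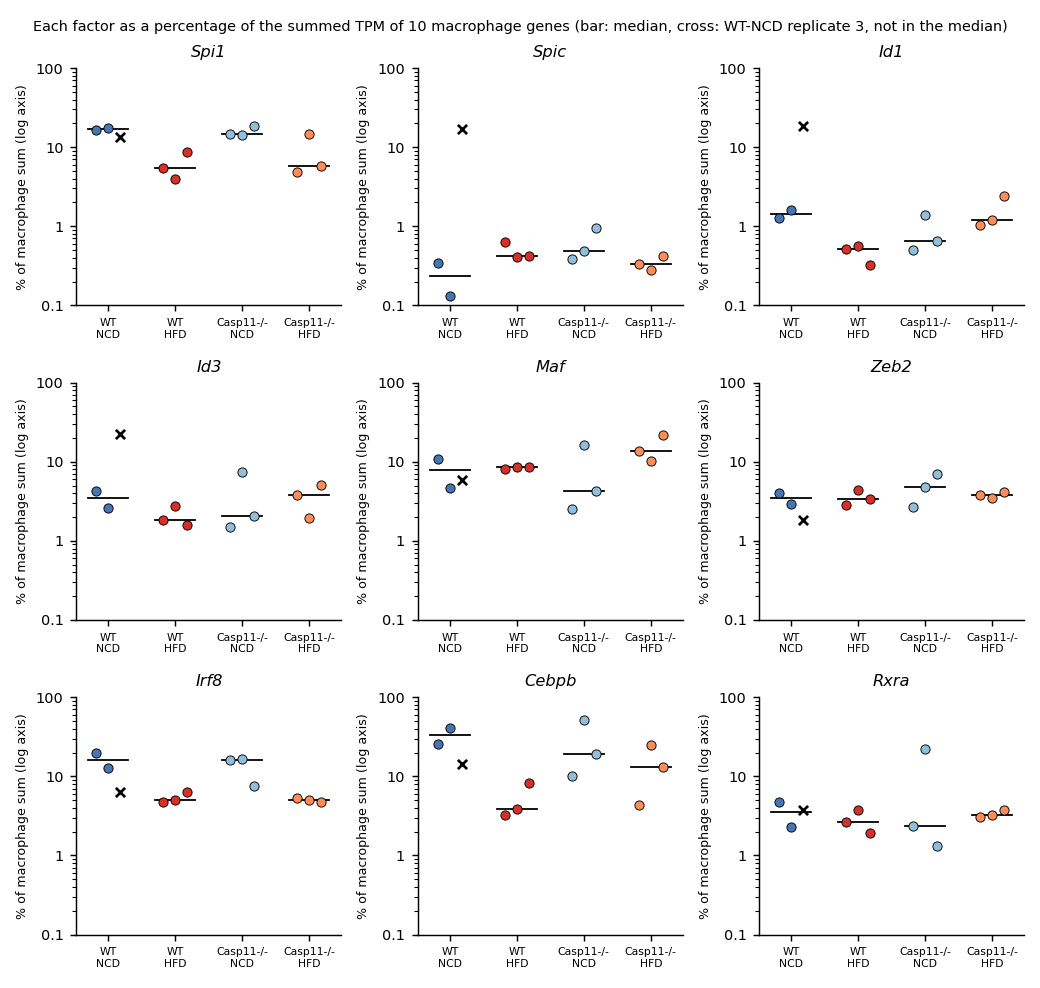
Each factor as a percentage of the summed TPM of 10 pan-macrophage genes in the same library (log axis), 1 point per mouse, bar at the group median, cross for WT-NCD replicate 3, which is left out of the median. Irf8 lay at 7.53% to 19.6% on NCD without that library and at 4.74% to 6.39% on HFD, while the Zeb2 percentages of the diets overlapped. A lower percentage on HFD was common, in 81.5% of 17950 genes without that library.

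Relatives and known targets of the factors were read as counts. They are set against the share of all genes that passed for diet averaged over genotypes without WT-NCD replicate 3, which was 17.3% lower on the deposited scale, and 8.1% higher and 6.49% lower on the protein-coding scale. With all 12 libraries, the 1 gene to pass for diet averaged over genotypes among the ETS, ID, MAF, ZEB, IRF, C/EBP and RXR relatives, other macrophage factors and targets was Slc40a1, which encodes the iron exporter ferroportin and is a target of SpiC. It lay at 13.1 to 25.7 TPM on NCD (3.82 in WT-NCD replicate 3) and at 58.3 to 168 on HFD, and rose by 2.48 ± 0.42 on the log2 scale (adjusted p = 0.0330). All 3 SpiC targets listed (Slc40a1, Vcam1 and the heme oxygenase gene Hmox1) passed, higher on HFD, on the protein-coding scale without WT-NCD replicate 3, with a median difference of 2.05. The paper already reports Slc40a1 and Hmox1 as increased by HFD in these data. The list was chosen with earlier results known, so this count is not independent of them. Vcam1, an adhesion molecule also made by endothelium, rose by 2.05 ± 0.24 there (adjusted p = 0.00075).

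Of 9 PU.1 targets, 1 passed higher and 0 lower on that scale, with a median of 0.47. On the deposited scale without WT-NCD replicate 3, 1 passed, Itgam (CD11b), at -1.75 ± 0.50 (adjusted p = 0.0251). Among 13 ETS relatives 5 passed lower there, led by Spib, a B cell factor (-2.04 ± 0.41, adjusted p = 0.00223), and on the protein-coding scale 1 passed in each direction. Of 8 IRF relatives 5 passed lower on the deposited scale without that library, led by Irf4, a lymphocyte factor (-2.62 ± 0.45, adjusted p = 0.00044), and 1 on the protein-coding scale. On the latter Irf4 was at -2.04 ± 0.39 (adjusted p = 0.00807). Elf4 and Elk4 of the ETS list (-1.27 and -1.19) and Irf3 (-1.19) passed on the deposited scale alone.

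The E protein gene Tcf3 fell, with a difference of -1.83 on the deposited scale without WT-NCD replicate 3 (adjusted p = 0.00516) and of -1.30 on the protein-coding scale (adjusted p = 0.0135). Id4 rose, by 1.06 and 1.90 (adjusted p = 0.0405 and 0.0093), though it stayed low, at 1.01 to 2.52 TPM on NCD and 1.01 to 9.49 on HFD in the 11 libraries. The larger value, on the protein-coding scale, includes the scaling of values near the lowest deposited one. Of 14 tested genes of BMP and TGF-β signaling, which lies upstream of the ID genes, 3 passed higher and 0 lower on the protein-coding scale. Bmpr2, a BMP receptor, rose by 2.10 ± 0.29 (adjusted p = 0.00229). Smad7 and Tgfb1 fell on the deposited scale, at -1.29 and -1.40 (adjusted p = 0.0269 and 0.0398) and did not pass on the other (adjusted p = 0.0999 and 0.159).

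Among 7 MAF and BACH relatives 0 passed on the protein-coding scale, and on the deposited scale Mafk alone fell, by 1.12 (adjusted p = 0.0495). None of 6 C/EBP relatives passed on either scale. Of 13 RXR relatives and partner receptors tested, 3 passed lower on the deposited scale without WT-NCD replicate 3 (Rxrb, Nr1h2, which encodes LXRβ, and Rara, at -1.16, -1.15 and -1.32). Only 1 passed on the protein-coding scale, in the higher direction. Of 19 other macrophage factors tested, 5 passed lower on the deposited scale and 2 higher and 3 lower on the protein-coding scale, where Bhlhe41, Klf2 and Tfeb fell, at -1.23, -1.32 and -1.05 (adjusted p = 0.0093, 0.0209 and 0.0309). Of 4 ZEB relatives, 1 passed, higher, on the protein-coding scale and 0 on the deposited scale.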

How the data were processed

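Total RNA of the hepatic immune cell fraction was sequenced by the authors from Pico Input SMARTer Stranded libraries, read with STAR against mm10 (GRCm38.p6) and expressed as TPM in Qlucore Omics Explorer. The deposited values are TPM raised to a lowest value of 1.01, and are treated as a score because they are neither counts nor exact TPM. No read counts were used, so depth and counting error are unknown. In each file 6 rows without a gene name were left out. RefSeq names matched 39350 of 40840 genes, 21698 of them protein-coding.

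Log2(TPM + 1) of 19498 genes above the lowest value in at least 3 libraries was fitted in limma 3.58.1 (R 4.3.3) with trend and 1 spread over the 4 groups. Benjamini-Hochberg adjustment ran over all genes, with a threshold of 0.05. The mice of a group count as replicates, and the labels name no batch. Ratios were tested by exact permutation of diet within genotype, and correlations by 100000 permutations (SciPy 1.17.1, Python 3.11.15). The tests were tried on simulated data. Alternatives were other filters, a pseudocount of 0.1, the protein-coding scale, a replicate block, the spread of the 2 groups alone, other reference lists and each library left out. The text names the 9 factors, up to 3 relatives per list that passed in a diet comparison, and the 2 protein-coding genes closest to each factor. Some genes that this rule names are not reported here. The factors and lists were chosen with earlier results of these data known.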

Additional observations from a re-analysis of the deposited data

Results flagged for a closer look

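The diet effects of 2 factors differed between the genotypes at an unadjusted p under 0.05, and neither passed the correction over all genes. Id1 had a diet effect 1.86 higher in Casp11-/- than in WT mice on the log2 scale with all 12 libraries (limma, unadjusted p of 0.0314, adjusted p = 0.780). Without WT-NCD replicate 3 the value for Id1 was 1.71 (limma, unadjusted p of 0.0383, adjusted p = 0.9998). Leaving out 1 library at a time, the unadjusted p of limma was 0.05 or over in 7 of 12 omissions for Id1 and in 11 of 12 for Spic. On the deposited scale all 3 WT-HFD values of Id1 lay under the WT-NCD values and the Casp11-/- diets overlapped, while on the protein-coding scale the WT diets overlapped and the Casp11-/- diets did not, HFD being higher. Of all genes tested, 15.7% separated the WT diets on the deposited scale and 21.1% the Casp11-/- diets on the protein-coding scale. For Spic the same difference was -1.84 without WT-NCD replicate 3 (limma, unadjusted p of 0.0268, adjusted p = 0.9998). On the deposited scale both remaining WT-NCD values of Spic then lay under the WT-HFD values, and the Casp11-/- HFD values lay inside the Casp11-/- NCD range. The WT diets separated so, in either direction, in 54.6% of all genes tested.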

How the results depend on the processing

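Of the counts of factors past the threshold, 83 with 1 library left out and 38 under other alternatives were scored as unchanged. That score allows a ratio count to fall from 3 to 2, so the omissions in which Cebpb lost its call are among the 83. The limma counts with all libraries were 0 in every comparison. With the protein-coding scale 1 factor passed for diet averaged over genotypes, and 1 there and 1 in Casp11-/- mice when WT-NCD replicate 3 was also omitted. Leaving out 1 library at a time gave 0 to 2 factors, the 2 without WT-NCD replicate 3. All 9 ratios were lower on HFD with KC genes as reference, 7 of them at an exact p under 0.05 (98.4% of all genes), and all 9 with endothelial genes, 5 at that p (66.6% of all genes), a reference added after seeing the data, as was the pan-macrophage list without C1qa and C1qc, under which the same 3 factors passed. The causes were not tested.

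Signs turned on the protein-coding scale for diet averaged over genotypes (Spic 0.32, Id1 0.26, Irf8 0.023), in WT mice (Id3 0.25), in Casp11-/- mice (Zeb2 0.36, Rxra 0.31) and for the interaction (Cebpb 0.14). With WT-NCD replicate 3 omitted as well they turned for diet averaged over genotypes (Spic 1.01, Id1 0.56), in WT mice (Spi1 -0.27, Id3 0.54, Irf8 -0.28), in Casp11-/- mice (Zeb2 0.36, Rxra 0.31), for genotype on NCD (Maf -0.12, Irf8 -0.11, Cebpb -0.36) and for the interaction (Maf 0.43, Cebpb 1.15). Ratios turned with KC genes as reference (Maf -1.43, Zeb2 -2.23) and with endothelial genes (Maf -0.00058, Zeb2 -0.80).

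Leaving out 1 library at a time turned 49 signs of log2 differences, none of a difference that passed with all libraries. The ranges were, for diet averaged over genotypes, Spic -0.44 to 0.28, Id1 -0.33 to 0.053, Id3 -0.071 to 0.26 and Rxra -0.0089 to 0.64, and in WT mice Spi1 -0.998 to 0.95, Spic -0.049 to 1.20, Id3 -0.19 to 0.080, Irf8 -1.01 to 1.19 and Cebpb -2.19 to 0.33. In Casp11-/- mice they were Spic -1.27 to 0.13, Id3 -0.089 to 0.58, Zeb2 -0.91 to 0.66 and Rxra -0.48 to 0.18. For genotype on NCD they were Spi1 -0.012 to 1.94, Spic -0.44 to 1.13, Id3 -0.35 to 0.27, Maf -0.25 to 1.38, Irf8 -0.24 to 1.96 and Cebpb -0.50 to 2.03, and on HFD Spi1 -0.68 to 0.50, Id3 -0.041 to 0.58, Maf -0.018 to 0.61 and Rxra -0.23 to 0.075. For the interaction they were Id3 -0.035 to 0.64, Maf -1.05 to 0.59 and Cebpb -1.22 to 1.30, and for the ratios Spic -1.52 to 0.23, Zeb2 -0.15 to 0.20 and Rxra -0.73 to 0.29.

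The groups share replicate numbers, but same-numbered libraries did not deviate together throughout, so a number was not taken to pair them. Their correlations ran from -0.64 to 0.47, and from -0.33 to 0.47 without WT-NCD replicate 3. The libraries numbered 3 that then remained were all positively correlated, at 0.26 to 0.47. With a replicate block, 16 genes passed for diet averaged over genotypes in place of 108 and 0 in place of 22 in WT mice, and 0 of the 9 factors passed in any comparison. Not every library correlated best with its own number.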
